A study of Caenorhabditis elegans with 24 samples.

Results

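The basic helix-loop-helix (bHLH) genes hlh-2, hlh-12 and lin-32 were followed across the distal tip cell (DTC) and the rest of the Caenorhabditis elegans hermaphrodite. The members were chosen by their WormBase symbols, and both they and the gene lists were chosen with earlier results of these data known. Shares of all genes given beside their counts are thus a background and no independent test. All 3 members were found among the 46778 gene IDs of the count table and passed the filter on low counts. Polyadenylated RNA was counted in 24 libraries from wild-type hermaphrodites, which carried a Venus label in the DTC and grew at 20 °C on OP50 bacteria. A Venus-positive fraction, labelled DTC, and a non-fluorescent fraction of the other cells were each taken at late L3, early L4, late L4 and adulthood. Each of the 8 groups had 3 libraries, with RNA from 30000 to 60000 cells, which pools many animals. The labels do not give the promoter that drives Venus or the way cells were separated.

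bHLH factors bind DNA as dimers, and the partner in the dimer sets which genes they act on. HLH-2 is the worm's E protein, the broadly used dimer partner of the tissue-restricted class, and is known to be needed for making DTCs and for their expression of the Notch ligand lag-2. HLH-12 is a tissue-restricted partner known for its part in gonad migration and in expression of the secreted protease gon-1. LIN-32 is the worm relative of Drosophila Atonal, best known for the fate of sensory neurons, and likewise works as a dimer with HLH-2. The DTC caps each gonad arm, leads its migration in larvae and serves as niche to germline stem cells.

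On the ce11 assembly, hlh-2 lies on chromosome I from 7190788 to 7193920, hlh-12 on chromosome IV from 8478595 to 8479446 and lin-32 on chromosome X from 2229055 to 2230122, all on the minus strand. The annotated exons cover 1665 bases in hlh-2, 498 in hlh-12 and 619 in lin-32. No annotated gene overlaps hlh-2 or lin-32. The whole span of hlh-12 sits inside an intron of 1370 bases in the longer transcript of spp-10, a saposin-like gene on the opposite strand, and the exons of these genes share 0 bases.

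Total counts per library ran from 8391423 to 18045720. Of 12 DTC markers, which include lag-2, gon-1 and nid-1, 11 were higher in the DTC fraction at late L3, 10 at each L4 stage and 9 in adults, by the test given below. Over all genes tested, 6.03%, 9.4%, 9.19% and 8.19% were higher from late L3 to adult. Among these markers gon-1 was called in adults only. The summed level of the 12 markers in DTC libraries was 36620 to 79280 CPM (counts scaled to library size) at the 3 larval stages and 4537 to 6474 CPM in adults. Body wall muscle markers summed to 1861 to 11120 CPM in larval DTC libraries and to 22660 to 28860 CPM in adult ones, above the 16340 to 18690 CPM of adult other cells. The library of other cells at late L3 labelled replicate 3 stood apart from its group, with a score of -19.2 on the first principal component against 114 and 108. Late L3 tests of the members, of the lists and of the genes named with a late L3 call are given with it and, where the call or count changed, without it. Without it 11 of 12 DTC markers were still called higher at late L3, against 4.19% of all genes. In these bulk samples fewer cells of a type and less RNA per cell cannot be told apart.

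The transcripts of hlh-12 and lin-32 were high in DTCs at different stages. CPM values are scaled by the trimmed mean of M values (TMM). In late L3 DTCs hlh-12 averaged 358 ± 43.8 CPM (SD over n = 3 libraries, as for all means below). It averaged 75.5 ± 18.5 CPM by early L4, 3.61 ± 1.82 by late L4 and 3.46 ± 0.914 in the adult. lin-32 averaged 6.19 ± 2.61 CPM in late L3 DTCs, 52.8 ± 3.95 by early L4, 133 ± 51 by late L4 and 14.3 ± 7.76 in the adult. hlh-2 averaged 148 ± 11.6, 103 ± 19.8 and 169 ± 78.7 CPM at the larval stages and 30.8 ± 3.73 in adults.

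**Figure D1:**
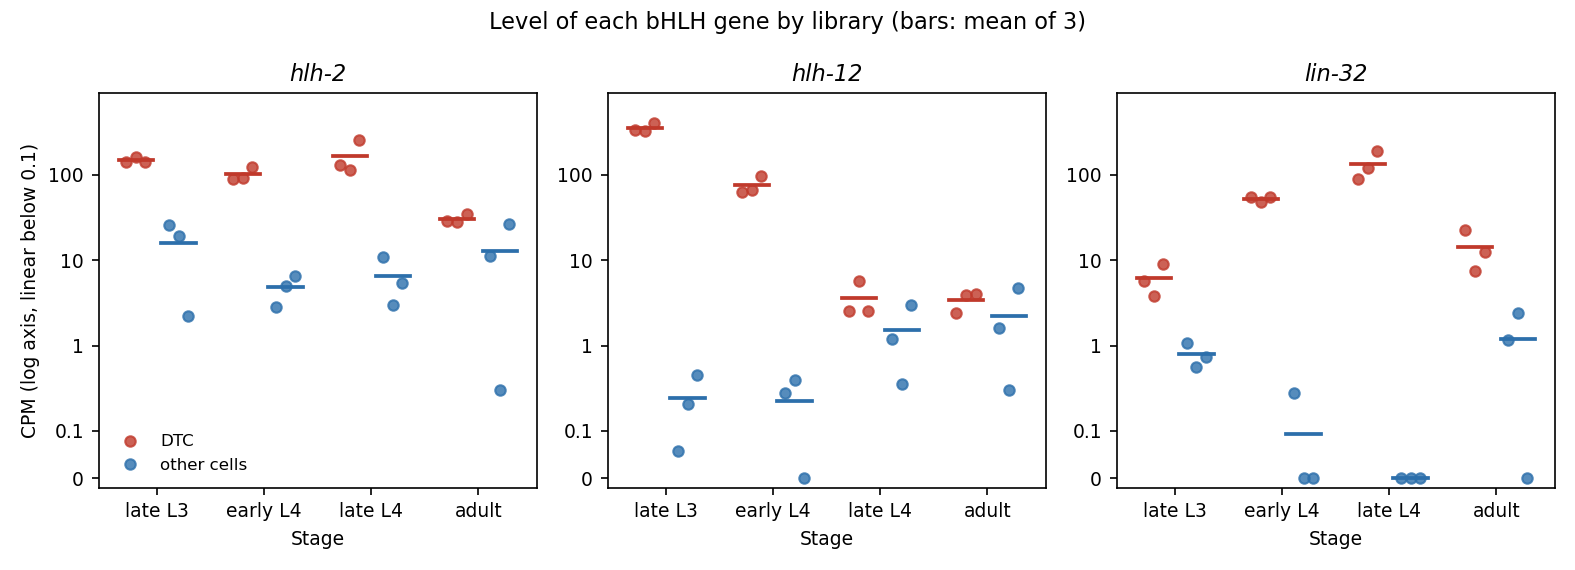
Level of hlh-2, hlh-12 and lin-32 in CPM (y axis, logarithmic above 0.1 and linear below) in each library of DTCs and of other cells by stage (x axis). Points are libraries and bars are means of 3. In DTCs hlh-12 averages 358 CPM at late L3 and 3.61 at late L4, and lin-32 averages 6.19 and 133.

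The early member was hlh-12. At late L3 its DTC libraries held 6482, 4915 and 6095 counts, or 335, 331 and 409 CPM. The libraries of other cells held 1, 4 and 10 counts, at most 0.458 CPM. The groups were far apart, and hlh-12 was higher in DTCs by a log2 fold change of 10.45 ± 1.13 (± standard error here and below, adjusted p = 5.46e-06). Adjusted p-values here and below come from edgeR's quasi-likelihood test with Benjamini-Hochberg adjustment over all 16887 genes that passed the filter, and "called" means a value under 0.05. Without other cells late L3 replicate 3 the log2 fold change was 11.29 ± 1.36 (adjusted p = 3.53e-05).

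At early L4 the DTC libraries held 793, 1178 and 1238 counts of hlh-12, or 63.5, 66.3 and 96.9 CPM. The other cells held 7, 10 and 0 counts. The groups did not overlap, and hlh-12 was higher in DTCs by 8.34 ± 1.04 on the log2 scale (adjusted p = 1.29e-05). The value was 9.11 without other cells early L4 replicate 2 and 7.48 without replicate 3, and stayed called.

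From late L4 the hlh-12 libraries of the 2 fractions overlapped. DTC libraries stood at 2.56, 5.71 and 2.56 CPM at late L4, against 1.2, 0.357 and 3 CPM in other cells. In adults they stood at 2.41, 3.95 and 4.04 CPM against 1.59, 0.298 and 4.75. The log2 fold changes, 1.25 ± 0.80 at late L4 (adjusted p = 0.322) and 0.64 ± 0.80 in adults (adjusted p = 0.649), were not called. Their 95% intervals ran from -0.41 to 2.91 and from -1.02 to 2.31.

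The late member was lin-32. At late L3 DTC libraries held 111, 57 and 134 counts, or 5.74, 3.83 and 8.99 CPM, against 1.08, 0.567 and 0.732 CPM in other cells. The groups were separate, and the log2 fold change of 2.95 ± 0.93 passed the threshold (adjusted p = 0.0434). The call was lost on leaving out any 1 of 18 libraries, among them other cells late L3 replicate 3 (2.90 ± 1.07, adjusted p = 0.105). Same-numbered samples of the late L3 fractions had correlated deviations (0.16, 0.115 and 0.248), and with the replicate number as a block over all 24 libraries the call was lost (3.00, adjusted p = 0.0568). It was also lost under RLE scaling (2.65, adjusted p = 0.0678) and in a fit of the compared groups alone (2.82, adjusted p = 0.0595).

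At early L4 DTC libraries held 695, 859 and 697 counts of lin-32, or 55.6, 48.3 and 54.5 CPM, and other cells held 7, 0 and 0 counts. lin-32 was then higher by 9.03 ± 1.24 on the log2 scale (adjusted p = 6.03e-05). All 7 counts of the other cells came from replicate 1. Without it the other cells held 0 counts and the fitted value, which then depends on the prior count, was 12.6. Without other cells early L4 replicate 3 it was 8.19, and the call held on leaving out each library. At late L4 DTC libraries held 945, 1332 and 2215 counts, or 89.6, 121 and 189 CPM. All 3 libraries of other cells held 0 counts, which makes lin-32 at least 1800-fold higher in DTCs, against a limit of 3 counts over that group that covers counting error only (adjusted p = 1.56e-05).

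Adult DTC libraries stood at 22.7, 7.46 and 12.7 CPM of lin-32 and the other cells at 1.17, 2.39 and 0 CPM. The adult groups did not overlap and the log2 fold change of 3.58 ± 0.96 was called (adjusted p = 0.0198). That call was lost without DTC adult replicate 1 or 3 or other cells adult replicate 1, with adjusted p up to 0.092. The log2 fold change was 4.35 without other cells adult replicate 2 and 2.87 without replicate 3, and was not called in a fit of the adult groups alone (3.38 ± 1.37, adjusted p = 0.193).

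The shared partner, hlh-2, was high in DTCs at each larval stage. At late L3 DTC libraries stood at 140.0, 161 and 142 CPM and other cells at 26, 19.2 and 2.24 CPM. The lowest value was that of the library that stood apart. hlh-2 was higher in DTCs by 3.23 ± 0.90 on the log2 scale (adjusted p = 0.0223), and the call was lost without other cells late L3 replicate 3 (2.71 ± 0.91, adjusted p = 0.0719), without other cells late L3 replicate 2, without DTC late L3 replicate 3, and in a fit of the late L3 groups alone (3.11, adjusted p = 0.054).

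At early L4 hlh-2 stood at 90.0, 92.5 and 126 CPM in DTC libraries against 2.86, 5.01 and 6.53 in other cells. It was higher in DTCs by 4.42 ± 0.96 on the log2 scale (adjusted p = 0.00342). At late L4 it stood at 132, 115.5 and 259 CPM against 11, 3 and 5.36, a log2 fold change of 4.71 ± 0.97 (adjusted p = 0.00222) that was 4.02 without DTC late L4 replicate 3 and 5.33 without other cells late L4 replicate 1. DTC late L4 replicate 3 held the highest level of both hlh-2 and lin-32 among the DTC libraries.

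In adults hlh-2 stood at 29, 28.2 and 35 CPM in DTC libraries and at 11.2, 0.298 and 26.7 CPM in other cells. The lowest DTC library stood just above the highest of the other cells, and the log2 fold change of 1.28 ± 0.85 was not called (adjusted p = 0.339, 95% interval -0.50 to 3.05). It was 0.57 without other cells adult replicate 2 and 2.26 without other cells adult replicate 3.

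**Figure D2:**
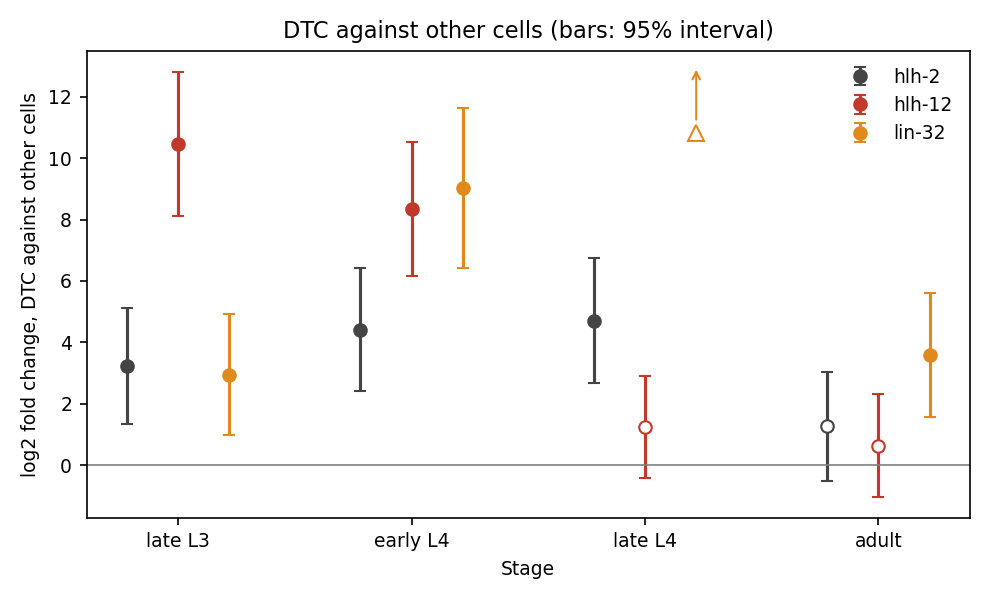
Log2 fold change of DTCs against other cells (y axis) by stage (x axis) for the 3 bHLH genes. Circles are fitted values with 95% intervals, filled where adjusted p was under 0.05, and the triangle with an arrow is the lower bound of lin-32 at late L4, where other cells held 0 counts. Only lin-32 was called at all 4 stages.

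Counted together, 3 of 3 members were called higher in DTCs at late L3, where 6.03% of all genes tested were higher and 7.33% lower. Without other cells late L3 replicate 3 only hlh-12 of the 3 was called there, against 4.19% of all genes higher. At early L4 all 3 were higher, against 9.4% of all genes higher and 1.65% lower. At late L4 hlh-2 and lin-32 were higher, against 9.19% and 2.61%. In adults lin-32 alone was higher, against 8.19% and 5.12%. No member was lower at any stage. In order of mean level hlh-12 ran from DTCs at late L3 through early L4, which were separate from each other and from the rest, and its 6 other groups formed a chain in which each overlapped the next. For lin-32 the DTC libraries of late L4 and of early L4 were each separate from the next group down, adult and late L3 DTCs overlapped, and every group of other cells lay below all DTC groups. For hlh-2 late L4 and late L3 DTCs overlapped, late L3 lay above early L4, early L4 above adult DTCs, and adult DTCs above all other cells.

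The next question was how each member changed within DTCs from stage to stage. Between late L3 and early L4 the hlh-12 libraries did not overlap, and the log2 change of -2.25 ± 0.77 was not called (adjusted p = 0.135, 95% interval -3.85 to -0.65). lin-32 libraries were also separate, with a log2 change of 3.09 ± 0.91 (adjusted p = 0.0871, 95% interval 1.17 to 5.01). A fit of these groups alone, which estimates the spread from 6 libraries, called hlh-12 (-2.24 ± 0.22, adjusted p = 0.00667) and lin-32 (3.11 ± 0.35, adjusted p = 0.00956), and so did the fit without a filter. DESeq2 called lin-32 (3.30, adjusted p = 0.000837). In the fit of all groups 0 members were called, where 1.79% of all genes were higher and 0.213% lower (hlh-12 and lin-32 had unadjusted p of 0.00836 and 0.00334). hlh-2 had a log2 change of -0.53 ± 0.83 (adjusted p = 0.792).

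Between early and late L4 hlh-12 fell by 4.38 ± 0.85 on the log2 scale (adjusted p = 0.00323). It was the only member called lower, where 3.8% of all genes were higher and 1.77% lower, and stayed called without any single library. The lin-32 libraries were separate, from 48.3 to 55.6 CPM at early L4 and from 89.6 to 189 at late L4. Their log2 change of 1.33 ± 0.85 was not called (adjusted p = 0.42), and the fit of these groups alone called it (1.35 ± 0.28, adjusted p = 0.0229). The hlh-2 libraries of early and late L4 overlapped (0.72 ± 0.83, adjusted p = 0.703).

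Between late L4 and adulthood lin-32 fell by 3.22 ± 0.92 on the log2 scale (adjusted p = 0.0276), where 6.68% of all genes were higher and 6.12% lower. The call was lost without DTC late L4 replicate 2 or 3 or DTC adult replicate 2 or 3, where the adjusted p reached 0.0915, and the value was -3.91 without DTC adult replicate 1. hlh-2 libraries were separate, with a log2 change of -2.46 ± 0.88 that was not called (adjusted p = 0.0705). It was called without a filter (-2.46, adjusted p = 0.0201), by DESeq2 (-2.46, adjusted p = 0.0228) and with the compared groups alone (-2.56, adjusted p = 0.0041). hlh-12 changed by -0.07 ± 0.78 (adjusted p = 0.977). Over the same step 8 of 12 DTC markers fell and 0 rose, with a median log2 change of -2.56 against -0.01 over all genes. Body wall muscle markers had 3 of 9 higher and a median of 1.45. The part of these shifts in the members' adult values was not tested.

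Each change within DTCs was also set against the change of the other cells over the same stages, in a test of the difference of the changes. For hlh-12 from early to late L4 the difference was -7.09 ± 1.22 on the log2 scale (adjusted p = 0.0109, and -7.82 to -6.08 with each library left out, the extremes without other cells early L4 replicate 2 and late L4 replicate 3), where 0.379% of all genes were called. The summed rate of hlh-12 in DTCs dropped to 0.0484 of its early L4 value, while in other cells it went from 17 to 59 counts. For lin-32 from late L4 to adulthood the difference was also called (adjusted p = 0.00454), where 7.14% of all genes were called. Its summed rate in DTCs dropped to 0.117 of the late L4 value while other cells went from 0 to 43 counts, which puts the ratio of these ratios at 0.00736 at most. For lin-32 from late L3 to early L4 the difference of 6.08 ± 1.39 was not called (adjusted p = 0.0635, with 0.497% of all genes called), but was without a filter (6.07, adjusted p = 0.00626) and by DESeq2 (6.21, adjusted p = 0.000107). None of the 3 differences of hlh-2 was called by this test (adjusted p from 0.0879 to 1).

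Per kilobase of exon, which allows levels of different genes to be compared, the more abundant partner gene switched during L4. In DTCs at late L3 hlh-12 stood at 719 ± 88 CPM per kb, lin-32 at 9.99 ± 4.21 and hlh-2 at 88.8 ± 6.98. At early L4 the values were 152 ± 37.2, 85.3 ± 6.38 and 61.7 ± 11.9. At late L4 they were 7.25 ± 3.65 for hlh-12, 215 ± 82.4 for lin-32 and 101.4 ± 47.3 for hlh-2.

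Of the sum of the hlh-12 and lin-32 levels per kb, hlh-12 made up 98.3% to 99.1% in the 3 DTC libraries of late L3. Its share was 58.6% to 68.8% by early L4, 1.66% to 5.55% by late L4 and 11.7% to 39.7% in the adult, and no library of one larval stage overlapped another stage. The summed level of hlh-12 and lin-32 was 6.92 to 9.77 times that of hlh-2 at late L3, 3.75 to 4.02 times by early L4, 1.9 to 2.98 times by late L4 and 1.18 to 2.38 times in the adult. The larval stages were separate in this ratio as well, and late L4 and adult libraries overlapped. These ratios compare transcript levels, with no measure of protein.

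**Figure D3:**
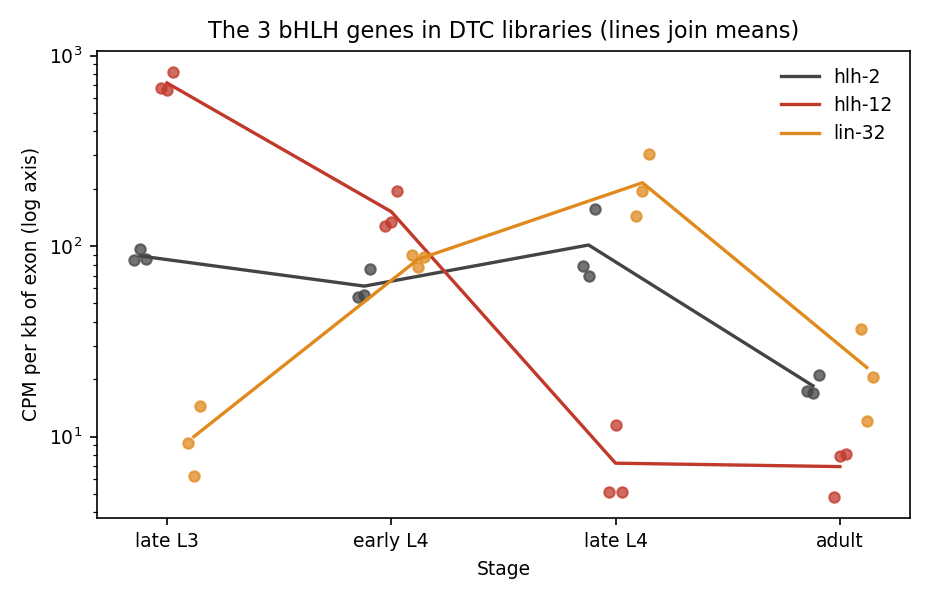
CPM per kilobase of exon (logarithmic y axis) of the 3 bHLH genes in the DTC libraries by stage (x axis). Points are libraries and lines join means of 3. From late L3 to late L4 the mean of hlh-12 goes from 719 to 7.25 and that of lin-32 from 9.99 to 215, and the larval means of hlh-2 lie between 61.7 and 101.4.

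Since lin-32 is a proneural gene, neuron markers were read beside it. The 13 markers, such as rab-3 and unc-64 of synaptic vesicle release, summed to 287 to 416 CPM in late L3 DTCs, 502 to 627 by early L4, 547 to 646 by late L4 and 1311 to 1739 in the adult. Of the 13, 2 were called higher in DTCs than in other cells at early L4, where 9.4% of all genes were, 1 at late L4 (9.19%) and 0 in adults (8.19%). At late L3 1 was higher and 3 were lower, against 6.03% and 7.33% of all genes. Without other cells late L3 replicate 3 the late L3 counts were 0 and 5, against 4.19% and 4.45%. Over the DTC step from late L3 to early L4, 0 of 13 were called, where 1.79% of all genes were higher and 0.213% lower. The median log2 change of the markers was 0.77, against 3.09 for lin-32, which was not called either (adjusted p = 0.0871). At late L4, where other cells held no lin-32 count, their neuron markers summed to 276 to 919 CPM. The markers summed in other cells to 187 to 915 CPM at late L3, 415.5 to 484.5 by early L4 and 1303 to 2796 in the adult. Of 10 sensory and touch neuron genes linked to lin-32, such as unc-86 and mec-3, 1 was called higher in DTCs at early L4, near the 9.4% of all genes, and 0 at the other stages. Their summed level in DTCs was 420.0 to 938 CPM at late L3, 907 to 1187 by early L4 and 815 to 1554 by late L4, against 52.9 to 615, 197 to 270.3 and 74.3 to 622 CPM in other cells. In adults the sums were 526 to 659 CPM in DTCs against 536 to 1383 in other cells. The median log2 fold changes of these genes were -0.655, 0.077, 0.132 and -0.321 from late L3 to adult. Over all genes they were -0.032, -0.353, -0.139 and 0.107, so the sums do not describe the typical gene of the list. The part of neuronal RNA in the lin-32 values was not tested.

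The host gene of hlh-12 was read because the strand setting of the counting is not given. spp-10 averaged 704 ± 153 CPM in late L3 DTCs and 349.8 ± 117 by early L4, stood at 119, 125 and 67.9 CPM in the late L4 libraries, and averaged 429.5 ± 62.9 CPM in the adult. It was higher in DTCs than in other cells at late L3 (2.37 ± 0.29, adjusted p = 2.51e-05) and early L4 (1.99 ± 0.29, adjusted p = 6.88e-05) and lower at late L4 (-1.21 ± 0.28, adjusted p = 0.00614). spp-10 and hlh-12 thus both fell in DTCs between early and late L4, spp-10 by 1.75 ± 0.29 (adjusted p = 0.000708).

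From late L4 to adulthood spp-10 rose in DTCs by 2.05 ± 0.29 (adjusted p = 0.000162), while hlh-12 was not called. The ratio of spp-10 counts to hlh-12 counts was 1.8 to 2.15 in DTC libraries at late L3, 4.33 to 5.01 by early L4, 21.9 to 46.5 by late L4 and 95.4 to 171 in the adult. In libraries of other cells with an hlh-12 count it was 85.7 to 2016. The 75 counts of hlh-12 in adult DTCs and 75 in adult other cells came with 9745 and 11191 counts of spp-10. How many of the counts given to hlh-12 come from spp-10 RNA was not tested.

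**Figure D4:**
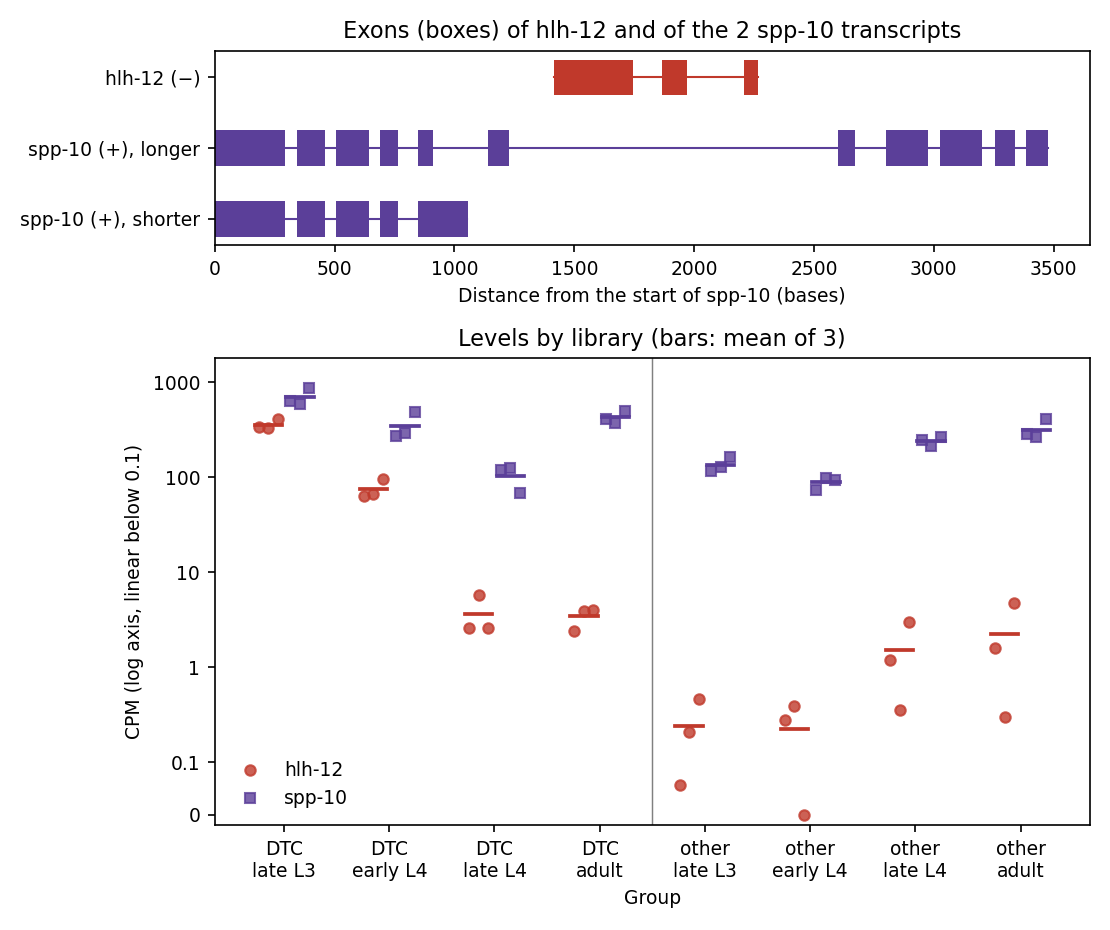
Top, exons of hlh-12 (minus strand) and of the 2 spp-10 transcripts (plus strand) by distance in bases from the start of spp-10. Bottom, CPM of both genes in each library by group (y axis logarithmic above 0.1), with bars at means of 3. spp-10 stands at 67.9 to 125 CPM in late L4 DTC libraries and at 377 to 499 in adult ones, while hlh-12 averages 3.61 and 3.46.

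The rest of the bHLH family was read for comparison. Of 38 other bHLH genes, 24 passed the filter, and 7 of these were called at 1 or more stages in DTCs against other cells. The share of all genes called at 1 or more stages was not computed, so shares are given by stage. At late L3 1 was higher and 2 were lower, and at each later stage 5 were higher and 0 lower. Over all genes 6.03% were higher and 7.33% lower at late L3, and 8.19% to 9.4% were higher and 1.65% to 5.12% lower at the later stages. Without other cells late L3 replicate 3, where 26 of these genes passed the filter, the late L3 counts were 0 higher and 2 lower. Over all genes 4.19% were then higher and 4.45% lower. In the fit of all libraries the 24 genes had median log2 fold changes of -1.47, -0.63, -0.14 and 0.46 from late L3 to adult. All 7 changed less than hlh-12 did at late L3 and early L4.

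The gene aha-1, which encodes the common partner of bHLH-PAS factors, was higher in DTCs at all 4 stages, from 1.63 ± 0.53 at late L3 (adjusted p = 0.0452) to 3.26 ± 0.57 in adults (adjusted p = 0.00151). Its late L3 call was lost on leaving out any 1 of 23 libraries (1.24, adjusted p = 0.168 without other cells late L3 replicate 3) and its late L4 call on leaving out any 1 of 13, with adjusted p up to 0.144. Its early L4 call was lost without other cells early L4 replicate 3 (adjusted p = 0.102) and without a filter (adjusted p = 0.0514). The hypoxia factor gene hif-1 was higher at early L4 (1.77 ± 0.26), late L4 (2.35 ± 0.27) and in adults (1.07 ± 0.26). So were hlh-11, which encodes a relative of AP-4 (1.99 ± 0.32, 2.4 ± 0.32 and 0.97 ± 0.31), hlh-30, the TFEB gene of lysosome and autophagy control (1.36 ± 0.31, 2.18 ± 0.32 and 1.51 ± 0.32), and mdl-1, a Mad-type partner in the Max network (0.93 ± 0.27, 1.41 ± 0.27 and 1.38 ± 0.27). At early L4 the mdl-1 call was lost on leaving out any 1 of 14 libraries, under RLE scaling (0.65, adjusted p = 0.155) and by DESeq2 (0.65, adjusted p = 0.0941). On leaving out single libraries the adult calls of hlh-11 (any 1 of 19, adjusted p up to 0.216) and hif-1 (any 1 of 3, up to 0.0971) were also lost, as were hlh-30 at early L4 without other cells early L4 replicate 3 (0.0566) and mdl-1 at late L4 without DTC late L4 replicate 3 (0.0529). The adult calls of aha-1, hlh-11, hif-1, hlh-30 and mdl-1 were lost in a fit of the adult groups alone, with adjusted p from 0.0753 to 0.219.

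Within DTCs, hlh-30, hif-1, hlh-11 and mdl-1 rose between early and late L4, the step over which hlh-12 fell and 3.8% of all genes were higher. Mean levels in other cells also went up, from 23.96 to 64.73 CPM for hlh-30 and from 57.26 to 100.3 for hif-1. They went from 40.15 to 75.23 CPM for hlh-11 and from 243.5 to 606.5 for mdl-1. For none of these genes was the difference between the DTC and other-cell changes called (adjusted p from 0.671 to 0.995). In DTCs hlh-30 rose by 2.25 ± 0.32 (adjusted p = 0.000185), mdl-1 by 1.8 ± 0.27 (adjusted p = 0.000339), hif-1 by 1.39 ± 0.26 (adjusted p = 0.00237) and hlh-11 by 1.31 ± 0.31 (adjusted p = 0.0144), which was lost without DTC early L4 replicate 1 or 3 or DTC late L4 replicate 3 (adjusted p up to 0.11). To adulthood, where 6.12% of all genes fell in DTCs, hif-1 (-1.26 ± 0.26, adjusted p = 0.00299), hlh-30 (-1.4 ± 0.31, adjusted p = 0.00583) and hlh-11 (-1.21 ± 0.31, adjusted p = 0.0131) fell, as lin-32 did. The hlh-11 fall was not called without DTC late L4 replicate 3 (adjusted p = 0.053). From late L3 to early L4 mdl-1 rose (1.15 ± 0.27, adjusted p = 0.0342, against 1.79% of all genes), a call lost on leaving out any 1 of 7 libraries. Lower in DTCs than in other cells were hlh-8, the Twist gene of mesoderm (-3.57 ± 1.09, adjusted p = 0.0355), and the Max-like gene mxl-3 (-2.37 ± 0.71, adjusted p = 0.0319), both at late L3. The hlh-8 call was lost on leaving out any 1 of 5 libraries and the mxl-3 call on leaving out any 1 of 3 libraries, with adjusted p up to 0.13 and 0.114.

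**Figure D5:**
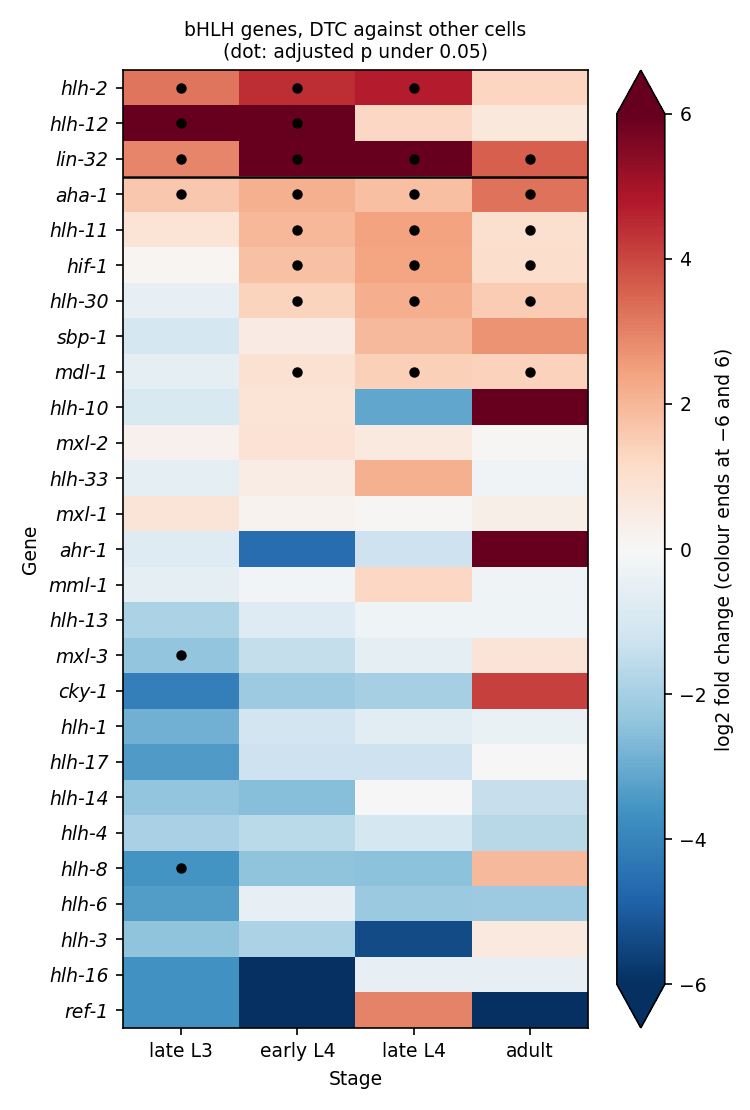
Log2 fold change of DTCs against other cells (colour, cut at -6 and 6) for the 3 bHLH genes above the line and the 24 other bHLH genes tested, by stage (x axis). Dots mark adjusted p under 0.05. Among the other genes aha-1 was called higher at late L3 and 5 genes at each later stage.

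Genes tied to HLH-2 or its partners by earlier work were read next, from a list of 15 of which 14 were tested. The list shares lag-2, gon-1, apx-1, nid-1 and mig-6 with the DTC markers. Apart from zmp-1 at the L4 stages, all its higher calls against other cells came from these shared genes. The higher counts thus largely repeat the marker result. In DTCs against other cells 4 were higher and 1 lower at late L3, 5 and 1 at early L4, 5 and 1 at late L4, and 5 and 0 in adults, where over all genes 6.03% and 7.33%, 9.4% and 1.65%, 9.19% and 2.61%, and 8.19% and 5.12% were. Without other cells late L3 replicate 3, where all 15 were tested, the late L3 counts were again 4 and 1, against 4.19% and 4.45% of all genes. In adults the apx-1 call was lost on leaving out any 1 of 19 libraries (adjusted p up to 0.161). The DTC level of lag-2 averaged 201 ± 48.1, 205 ± 10.1 and 270.4 ± 63.7 CPM at the successive larval stages and 50.3 ± 3.76 in the adult, and no step between stages was called (adjusted p from 0.0652 to 1). gon-1 averaged 53.8 ± 25, 41.6 ± 4.15, 15.7 ± 3.46 and 9.83 ± 13.7 CPM at these stages. Against other cells it was separate but not called at late L3 (4.04 ± 1.37, adjusted p = 0.0563), early L4 (3.13 ± 1.31, adjusted p = 0.15) and late L4 (1.96 ± 1.26, adjusted p = 0.329). In adults the libraries overlapped, and the gon-1 call (5.64) was lost without DTC adult replicate 3 (3.25, adjusted p = 0.18) or any 1 of the 3 libraries of adult other cells. Its step from early to late L4 was -1.41 ± 1.23 (adjusted p = 0.583) where hlh-12 fell by 4.38, and with those groups alone it was called (-1.39, adjusted p = 0.0175).

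The metalloprotease gene zmp-1 averaged 35.5 ± 3.15, 55 ± 2.54, 124 ± 44.7 and 19.4 ± 6.3 CPM in DTCs. It rose between early and late L4 by 1.18 ± 0.33 (adjusted p = 0.0408), a call that was lost on leaving out any 1 of 13 libraries, and fell by 2.68 ± 0.35 to adulthood (adjusted p = 7.8e-05). The Notch ligand gene apx-1 (-2.08 ± 0.53), nidogen nid-1 (-3.55 ± 0.60) and papilin mig-6 (-3.54 ± 0.36) also fell from late L4 to adulthood, the apx-1 call being lost without DTC adult replicate 3 (adjusted p = 0.0545). The Notch receptor gene lin-12 was lower in DTCs at late L3 (-4.22 ± 0.72), early L4 (-2.20 ± 0.66) and late L4 (-2.93 ± 0.68), and its early L4 call was lost on leaving out any 1 of 6 libraries (adjusted p up to 0.145). The remaining listed genes lin-3, nhr-67, cdh-3, ceh-22, pop-1, sys-1 and unc-86 were called in none of these stage comparisons or DTC steps by edgeR (adjusted p from 0.0977 to 1). At late L3 DESeq2 called nhr-67 (-4.37, adjusted p = 0.00853) and cdh-3 (-3.80, adjusted p = 0.0428) lower in DTCs, and the fit of those groups alone called cdh-3 (-3.64, adjusted p = 0.0155).

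The genes most like each member were found by the root mean square difference of log2 CPM over the 8 group means, after each gene's own mean was taken off. For hlh-2 they were C18E3.3 (0.333), D2045.9 (0.396), zag-1 (0.449), F57G12.1 (0.450) and htrl-1 (0.465), of which zag-1 encodes a zinc finger homeodomain factor. For lin-32 they were lelo-3 (0.639), W03G11.4 (0.707), T04F8.3 (1.033), WBGene00016470 (1.069) and C40A11.4 (1.072). For hlh-12 they were C34B7.1 (1.182), the choline kinase gene ckb-3 (1.288), the nuclear receptor gene nhr-141 (1.371), C05B5.17 (1.381) and linc-68 (1.423). The nearest gene to hlh-12 was thus farther away than the nearest genes to hlh-2 or lin-32. The distance is not scaled to a gene's range. Some listed genes, such as ckb-3 and lelo-3, stood in some groups at -2.9 log2 CPM, where the prior count sets the value. Among the members hlh-2 and lin-32 were closest (1.802), hlh-2 and hlh-12 differed by 2.141, and hlh-12 and lin-32 by 3.134.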

How the data were processed

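The authors' deposited table holds raw read counts for 46778 gene IDs in 24 libraries, and each column was mapped to its sample by library name. Per the submitters' processing notes, reads went through FastQC, cutadapt, Bowtie2 (ce11 build) and HTSeq; neither versions nor the strand setting are given in the sources used here. Without strand, reads of hlh-12 and of the spp-10 intron around it cannot be told apart.

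Computed here, in edgeR 4.0.16 under R 4.3.3: filterByExpr over 8 groups left 16887 genes, TMM factors scaled the libraries, and a single quasi-likelihood fit of the 24 libraries with a mean for each group (common biological coefficient of variation 0.835) was tested in 10 comparisons. The fit was tested on simulated data. Standard errors come from the fold change and the F statistic, and log2 CPM used a prior count of 2. Positions and exon lengths are from Ensembl release 115 (WBcel235, the ce11 assembly), which held 99.6% of the IDs. Alternatives were RLE scaling, no filter, DESeq2 1.42.0, a replicate block, only the compared groups, and leaving out each library. Separate cultures are not stated in the labels, so the spread behind the p-values is that among the samples and may be technical.

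Members and lists were chosen with earlier results of these data known. Named were the members, genes overlapping them and spp-10, the called bHLH genes (up to 12), all listed HLH-2 linked genes, and the 5 genes most like each member. Same-numbered samples of 2 groups deviated with correlations from -0.261 to 0.326, and in 2 of 28 group pairs all 3 were above 0.1. Of the pairs compared here only the late L3 fractions met this. The labels do not say that a number marks a shared culture, so pairing there is not settled, and the main fit leaves it out. The replicate block fits effects common to all 24 libraries, so it cannot test pairing at late L3 alone.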

Additional observations from a re-analysis of the deposited data

Results flagged for a closer look

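For some genes the change between stages in DTCs differed from that in other cells by edgeR's test of the difference itself. On the log2 scale these differences, DTC step minus other-cell step, were -7.09 ± 1.22 for hlh-12 from early to late L4 (adjusted p = 0.0109) and -10.38 ± 1.89 for lin-32 from late L4 to adult (adjusted p = 0.00454). The fitted size for lin-32 depends on the prior count, since other cells at late L4 held 0 counts, and the summed counts bound the ratio at 0.00736 at most. spp-10 differed by -3.20 ± 0.40 from early to late L4 (adjusted p = 0.000413) and by 1.65 ± 0.40 from late L4 to adult (adjusted p = 0.0187). Among other named genes, hif-1 differed by 1.66 ± 0.36 from late L3 to early L4 (adjusted p = 0.0426) and by -1.28 ± 0.36 from late L4 to adult (adjusted p = 0.0378), zmp-1 by -2.61 ± 0.47 from late L4 to adult (adjusted p = 0.00382), and mig-6 by -2.57 ± 0.47 from early to late L4 (adjusted p = 0.0145). Left out in turn, 20 libraries ended the early hif-1 call and 14 the late one, and other cells early L4 replicate 1 that of mig-6 (adjusted p = 0.0508). In DTCs alone the early hif-1 step was not called (0.52 ± 0.26, adjusted p = 0.294), while other cells averaged 125.9 CPM at late L3 and 57.3 at early L4. The mig-6 step in DTCs was not called either (-0.52 ± 0.33, adjusted p = 0.41), while other cells averaged 1081 CPM at early L4 and 4480 ± 2447 at late L4.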

How the results depend on the processing

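Across RLE scaling, no filter, a replicate block, DESeq2, only the compared groups and each library left out, no member's called change reversed. The calls of hlh-12 (late L3, early L4, early to late L4) held in all of these. Other counts of called genes and member calls moved as follows, and the cause was not tested. DESeq2 called more genes in DTCs against other cells by stage (4003, 2990, 3363 and 4042, against 2256, 1866, 1992 and 2248), in the DTC steps (1719, 2070 and 3871, against 338, 940 and 2162) and in the step differences (629, 336 and 2675, against 84, 64 and 1206). With only the compared groups, counts were 1336 at late L3, 4376 at early L4, 347 in adults, and 823 and 1604 for the first DTC steps. Without a filter, 885 genes were called in DTCs from late L3 to early L4 and 149 in that step difference. RLE scaling moved the median log2 fold change of all genes from -0.03 to -0.34 at late L3, -0.35 to -0.63 at early L4 and -0.14 to -0.37 at late L4, and the split of higher and lower calls from 1019 and 1237 to 676 and 1609, from 1587 and 279 to 1214 and 437, and from 1552 and 440 to 1254 and 625. Members kept their direction under it. In the DTC step from early to late L4 the split went from 641 and 299 to 763 and 216, and in the step difference to adult from 564 and 642 to 690 and 359.

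Calls lost were hlh-2 at late L3 with the compared groups alone (3.11), lin-32 at late L3 under RLE (2.65) and with those groups alone (2.82), and lin-32 in adults with those groups alone (3.38). Calls gained were hlh-12 from late L3 to early L4 without a filter (-2.24) and with those groups alone (-2.24), lin-32 over that step (3.10 without a filter, 3.30 by DESeq2, 3.11 with those groups alone) and from early to late L4 (1.35 with those groups alone), hlh-2 from late L4 to adult (-2.46 without a filter, -2.46 by DESeq2, -2.56 with those groups alone), and the step differences of lin-32 to early L4 (6.07 without a filter, 6.21 by DESeq2) and hlh-2 to adult (-3.43 without a filter, adjusted p = 0.0331). Among the groups compared, same-numbered samples had all correlations above 0.1 in the late L3 fractions only, and the labels do not say whether they share a culture. Replicate numbers as a block over all 24 libraries gave 213 genes for the DTC step to early L4 and 41 for that step difference. The block gave 3.00 for lin-32 at late L3 (adjusted p = 0.0568) and changed no other member's call.

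With each library left out, counts ran from 1142 to 2400, 1061 to 2109, 1112 to 2248 and 1134 to 2332 by stage, from 19 to 830, 469 to 1118 and 1221 to 2560 for the DTC steps, and from 13 to 193, 26 to 92 and 405 to 1348 for the step differences. The log2 value ran from 2.71 to 3.78 for hlh-2 and 2.44 to 3.23 for lin-32 at late L3, and from 2.87 to 4.35 for lin-32 in adults. It ran from 2.84 to 3.58 for lin-32 from late L3 to early L4 (called without other cells adult replicate 3), and from late L4 to adult from -2.75 to -2.17 for hlh-2 (called without other cells late L3 replicate 3 or adult replicate 2 or 3) and from -3.91 to -3.05 for lin-32. Step differences ran from 5.41 to 9.65 for lin-32 to early L4 (called without other cells late L3 replicate 3, early L4 replicate 1 or adult replicate 3) and from -4.06 to -2.22 for hlh-2 to adult (called without other cells adult replicate 2). Counts of 0 to 46 limit hlh-12 and lin-32 in other cells. CPM from plain totals lowered adult DTC levels to 20.6 for hlh-2, 2.38 for hlh-12 and 9.23 for lin-32.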
